A study of Mus musculus with 3 samples.

Results

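The genes described here encode the enzymes and remodellers that write, erase and read marks on chromatin, together with the subunits and paralogs that carry the same family symbols. They were chosen by symbol, and the rule holds no values, but earlier results of these data were known when it was set. It takes the families Kdm, Kat, Hdac, Sirt, Kmt, Setd, Ezh, Dnmt, Tet, Smarc, Chd, Brd, Arid and Asxl, and the genes Ep300, Crebbp and Bap1. The rule matched 109 entries of the deposited table, of which Kdm5c, Kdm5d and Kdm6a were set aside, and the remaining 106 genes of 14811 listed genes are the members. By role they are 9 lysine acetyltransferases, 15 lysine deacetylases, 21 histone methyltransferases and Polycomb-linked genes, 14 histone demethylases, 7 DNA methylation and TET genes, 33 remodeller ATPases, subunits and ARID proteins, and 7 bromodomain proteins. Of the 106, 5 carry the symbol of an antisense transcript or a pseudogene.

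The samples were macrophages sorted by flow cytometry from the kidneys of 3 C57BL/6J mice, separate animals of a single group, for which the labels name no allele. Each mouse had been given PBS into a vein 1 h before kidney removal. The tissue was dissociated with collagenase D, dispase and DNase at room temperature, for 30 min, before the sort. Full-length cDNA was amplified with the SMART-seq v4 kit for small amounts of RNA and libraries were made from 10 ng of it with 8 cycles of PCR. There is no second condition, so the comparisons below are between genes within a library, and the error is drawn from the spread between the 3 mice.

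Acetyltransferases and deacetylases add and remove acetyl groups on histone tails, and methyltransferases and demethylases do the same for methyl groups. Bromodomain proteins bind acetylated histones, DNA methyltransferases and TET dioxygenases write and oxidise cytosine methylation, and remodellers use ATP to slide, evict or exchange nucleosomes. In macrophages these factors act with lineage transcription factors such as PU.1 at the enhancers of tissue-specific and inflammatory genes, and histone deacetylases and the demethylase Kdm6b are known in the response to bacterial products.

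The libraries held 50951549, 56718534 and 50646558 reads over listed genes in mice 1, 2 and 3. The deposited values are read counts divided by a size factor plus 1, and after subtraction of that 1 a single read was worth 0.806, 0.555 and 0.705 normalised reads. All 12 macrophage markers examined were listed and 11 of them had at least 10 normalised reads in every mouse, and together they took 7.11, 8.31 and 6.78% of normalised reads. Cd74, which B cells and dendritic cells also express, held most of that share, and without it the other markers took 1.06, 0.963 and 1.04%. Itgam was the exception, with 1021, 446 and 5.64 normalised reads. The 8 tubule epithelium markers took 0.0107, 0.0688 and 0.00594% of normalised reads and were highest in mouse 2, where Slc34a1 had 8606 and Lrp2 8595 normalised reads. Among other cell types, Cd3e of T cells, S100a9 of neutrophils and Hba-a1 of red cells were at 0 in every mouse, whereas Cd79b of B cells had 227, 3940 and 6359 normalised reads. Cd3d of T cells had 0, 1.11 and 0. Few of the chosen markers of these types were listed: 2 of 4 for T cells, 1 of 4 for B cells, 1 of 4 for neutrophils and 1 of 3 for red cells. The 5 endothelial markers took at most 0.00388% of normalised reads, the 3 podocyte markers at most 0.00116%, the 2 listed mesenchymal markers at most 0.00229% and the 4 dendritic cell markers at most 0.00964%, and no NK cell marker was analysed here. These small shares still hold single genes with many reads. Clec9a, the 1 dendritic cell marker with at least 10 in every mouse, had 3421, 1330 and 1462.5 normalised reads. Kdr of endothelium had 453, 7.77 and 1345, and Dcn of mesenchyme 906, 0.555 and 154. The part of such other cells in the values below was not tested, and in bulk samples fewer cells of a type and less RNA per cell cannot be told apart.

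Promoters are shown for the 2 paralog pairs with the widest difference in level described below, whose call held under each of the 8 alternatives that could be run for them. These are the flavin-dependent histone demethylases Kdm1a and Kdm1b and the ISWI remodeller ATPases Smarca5 and Smarca1. Each is the 300 bases from 250 before to 50 after the annotated start, from RefSeq on GRCm38.p6, 5′ to 3′ on the gene's strand. Capitals mark the GC box GGGCGG and the CCAAT box, each on either strand.
Kdm1a promoter, chr4:136602674-136602973, minus strand: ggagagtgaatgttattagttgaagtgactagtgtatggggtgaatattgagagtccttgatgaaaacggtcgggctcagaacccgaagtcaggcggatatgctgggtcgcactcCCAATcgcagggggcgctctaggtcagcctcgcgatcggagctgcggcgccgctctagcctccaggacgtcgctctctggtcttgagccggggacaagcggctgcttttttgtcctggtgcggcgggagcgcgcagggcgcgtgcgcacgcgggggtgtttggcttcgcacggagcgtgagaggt
Kdm1b promoter, chr13:47043249-47043548, plus strand: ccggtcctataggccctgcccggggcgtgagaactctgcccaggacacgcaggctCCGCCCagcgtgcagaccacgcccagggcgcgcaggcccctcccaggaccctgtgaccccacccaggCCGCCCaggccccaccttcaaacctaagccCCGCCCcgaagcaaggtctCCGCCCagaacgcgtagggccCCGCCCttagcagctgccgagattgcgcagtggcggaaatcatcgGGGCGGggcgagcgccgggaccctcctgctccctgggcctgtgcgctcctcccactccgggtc
Smarca5 promoter, chr8:80739410-80739709, minus strand: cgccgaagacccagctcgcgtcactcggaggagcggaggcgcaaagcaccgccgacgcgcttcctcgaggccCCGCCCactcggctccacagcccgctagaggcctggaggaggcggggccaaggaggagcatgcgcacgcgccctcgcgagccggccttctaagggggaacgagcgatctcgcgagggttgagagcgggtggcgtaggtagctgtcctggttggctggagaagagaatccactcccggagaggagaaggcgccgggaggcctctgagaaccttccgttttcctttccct
Smarca1 promoter, chrX:47892564-47892863, minus strand: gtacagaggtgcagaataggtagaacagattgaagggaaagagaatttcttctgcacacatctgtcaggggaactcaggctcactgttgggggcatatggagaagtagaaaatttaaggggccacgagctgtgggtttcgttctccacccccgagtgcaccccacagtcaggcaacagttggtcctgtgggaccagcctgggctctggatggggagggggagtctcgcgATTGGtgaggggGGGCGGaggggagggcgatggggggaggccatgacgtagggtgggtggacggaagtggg
The Kdm1a window held 1 CCAAT box and no GC box, and the Kdm1b window 6 GC boxes and no CCAAT box. The Smarca5 window held 1 GC box, and the Smarca1 window 1 GC box and 1 CCAAT box. CG dinucleotides numbered 29 in the Kdm1a window, 26 in that of Kdm1b and 32 in that of Smarca5, against 9 in that of Smarca1.

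RefSeq promoters were found for 79 members, which have 107 of the 32851 promoters in the table, since some genes have several starts. The set of all promoters was not matched to the members for gene type or level. A GC box was present in 68.2% of member promoters and in 35.7% of all promoters, and the median number of CG dinucleotides was 25 in member promoters and 7 in all promoters. The TATA box TATAAA was present in 2.80% of member promoters and in 13.6% of all promoters. CCAAT was found in 33.6% of member promoters against 37.4% of all, the PU.1-type motif GAGGAAGT in 0.935% against 3.20%, and the ETS motif CCGGAAGT in 5.61% against 3.89%. All motifs were searched on both strands, GAGGAAGT and CCGGAAGT share the letters GGAAGT, and a match is a description of the letters and not a bound site.

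Most members were detected in every mouse, and few were abundant. No member was at 0 in all mice, while 976 of all listed genes were. In every mouse, 92 of the 106 members had reads, against 71% of all genes, and 69 had at least 10 normalised reads, against 44.4% of all genes. The high end did not follow: 14 members reached 1000 normalised reads in every mouse, a share close to the 14.7% of all genes. These were Ep300, Hdac9, 4 methyltransferase or Polycomb-linked genes (Asxl2, Kmt2c, Kmt2e, Setd2), 4 demethylases (Kdm2a, Kdm3a, Kdm5a, Kdm7a) and 4 remodeller or ARID genes (Arid1a, Arid2, Arid4a, Smarca2). The members together took 0.497, 0.295 and 0.404% of normalised reads in mice 1, 2 and 3. None of these counts was divided by exon length. Among genes with a mean of at least 10, the median exon length was 7881 bases in members and 4066 in all genes.

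A few genes carried much of that sum. The 10 highest members of each mouse held 49.9, 47.5 and 45.5% of the members' normalised reads, and Kmt2e was the only gene among the 10 highest in all 3 mice. The top member was Arid1a in mouse 1 with 15376 normalised reads, Setd2 in mouse 2 with 7359 and Kmt2e in mouse 3 with 7762. At the low end, 10, 5 and 7 of the 106 members were at 0 in mice 1, 2 and 3. Of the 14811 listed genes, 12019, 12853 and 11883 were above 0 in those mice. The floor of 3 reads is 2.42, 1.66 and 2.11 normalised reads there. A value at 0 is therefore below detection at this depth and does not show absence, and intervals and floors cover counting error only because the amplified reads carry no molecular identifiers.

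Genes were compared per length, as normalised reads per kb of exon. The typical gene, the median of the 11603 genes with a mean of at least 10 normalised reads, had 73.2, 96.1 and 75.3 reads per kb in mice 1, 2 and 3. This filter was passed by 96 of the 106 members, against 78.3% of all genes. The members that passed had a median level of 120 reads per kb, against 143 for all genes that passed, and a median exon length of 7881 bases, against 4066. In every mouse 17 of the 96 lay above the typical gene, against 28.8% of all genes, and 27 lay below it in every mouse, against 25.6%, and the other 52 lay on different sides in different mice, against 45.7%. A moderated limma test of each gene against the typical gene over the 3 mice, with Benjamini-Hochberg adjustment over 11603 genes, called 0 members and 0% of all genes at an adjusted p of 0.05. At an unadjusted p of 0.05 it gave 4 of the 96 members above (Arid1a, Arid4a, Kmt2e and Setd2), against 18.8% of all genes, and 18 below, against 17.2%. A test that calls nothing in the whole table says nothing about these genes singly. With no filter on low values the same test called 4 of the 106 members above the typical gene, against 16.3% of all genes, and 15 below, against 15.2%. With a pseudocount of 10 it called 1 of the 96 above, against 13.3%, and 8 below, against 8.62%.

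The lysine acetyltransferases were led by Ep300, the p300 coactivator of enhancers, with 696, 317 and 121 reads per kb in mice 1, 2 and 3, above the typical gene each time. Its paralog Crebbp had 240, 40.0 and 146 reads per kb. Kat2a and Kat2b are alternative catalytic subunits of SAGA-type coactivator complexes. Kat2a had 1.62, 31.6 and 496 reads per kb, and Kat2b 403, 30.8 and 577. In the MYST family, Kat6a had 679, 29.3 and 289 reads per kb, whereas its paralog Kat6b stayed below 3 in all 3 mice, at 2.83, 1.29 and 0.209. Kat6a thus lay above Kat6b in each library. Of the 9 acetyltransferases 7 lay on different sides of the typical gene in different mice, as did 45.7% of all genes.

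**Figure D1:**
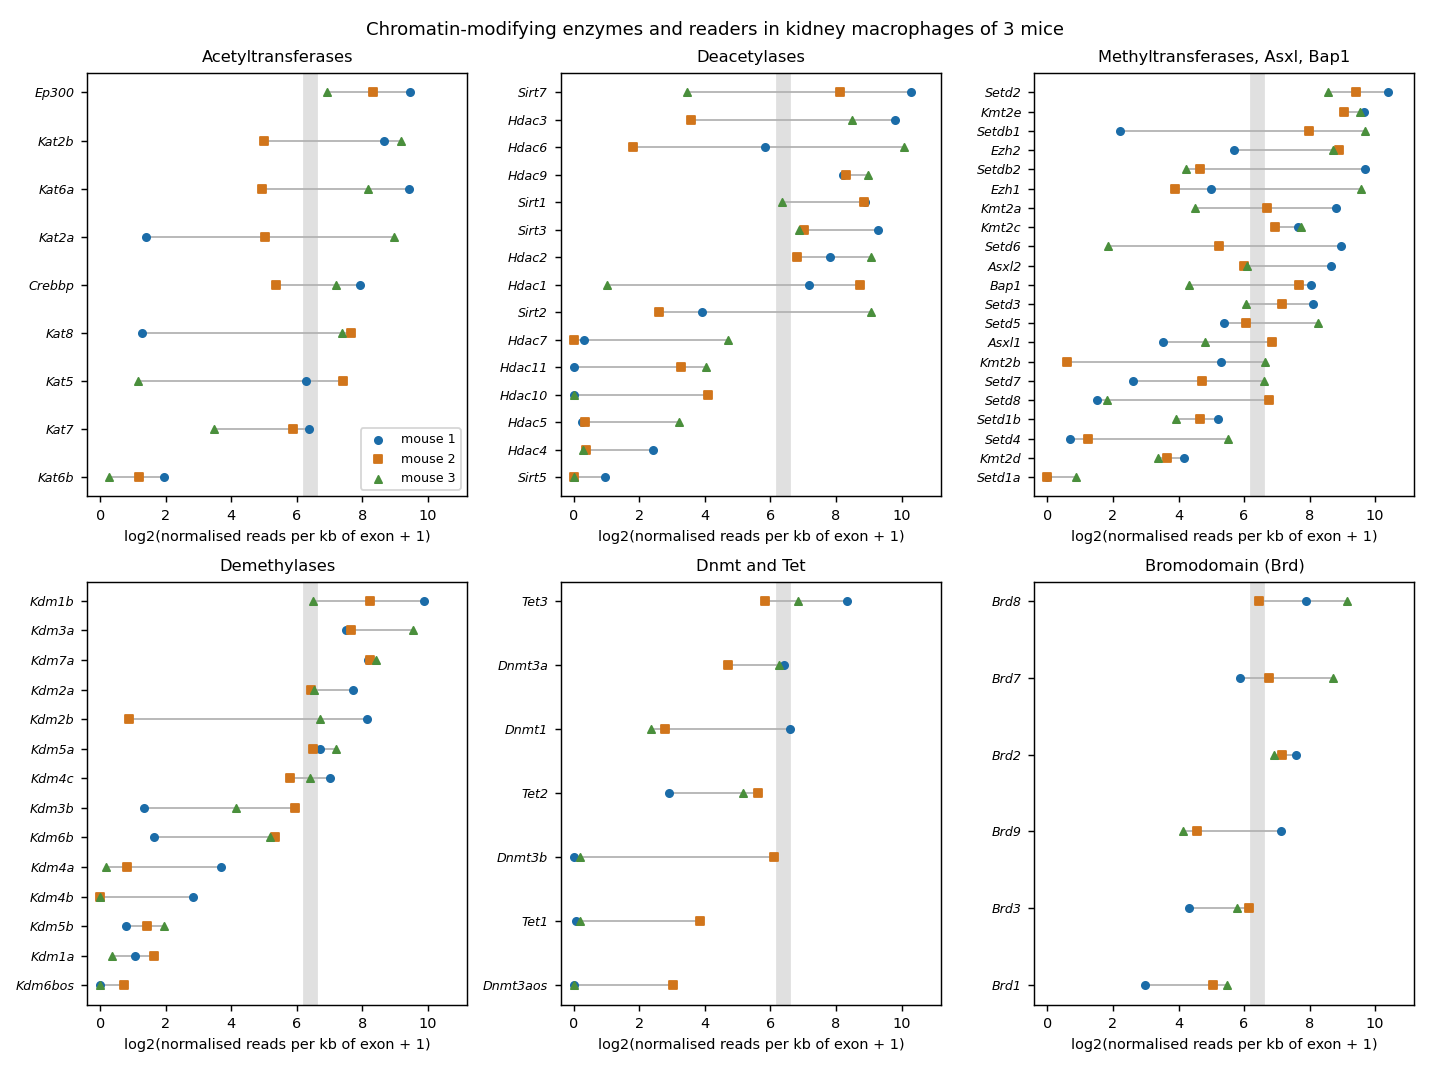
Level of enzyme and bromodomain genes in each mouse, as log2 of normalised reads per kb of exon plus 1, with 1 symbol per mouse and a line over the range. The grey band spans the typical gene of the 3 libraries (73.2 to 96.1 reads per kb); Kmt2e, Kdm7a and Hdac9 have narrow ranges above it and Hdac6 and Hdac1 span most of the axis.

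Among the deacetylases that passed the filter, Hdac9 had the narrowest range over mice, at 0.78 log2 units. This class IIa corepressor had 293, 318 and 503 reads per kb, and all 3 mice lay above the typical gene. The class IIa genes Hdac4 and Hdac5 were low in every mouse. Hdac4 had 4.39, 0.281 and 0.223 reads per kb and Hdac5 had 0.184, 0.253 and 8.19. Of the class I enzymes, Hdac1, a catalytic subunit of the NuRD, SIN3 and CoREST complexes, had 143 and 424 reads per kb in mice 1 and 2 and 1.02 in mouse 3. Its partner Hdac2 had 224, 110 and 533 reads per kb, above the typical gene in each mouse. Hdac3, the catalytic subunit of the NCoR and SMRT corepressors, had 882, 10.8 and 358 reads per kb. The lowest library was thus mouse 3 for Hdac1 and mouse 2 for Hdac3, and in neither gene did the 3 mice stay on one side of the typical gene.

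Hdac6, a largely cytoplasmic tubulin deacetylase, had the widest spread of all members that passed the filter. It had 329, 14.4 and 6214 normalised reads in mice 1, 2 and 3, a range of 8.65 log2 units. Among the NAD-dependent sirtuins, Sirt1 had 473, 464 and 80.8 reads per kb and lay above the typical gene in all 3 mice. Sirt2, which is mainly cytoplasmic, had 13.9, 5.07 and 539 reads per kb. Sirt7, a nucleolar sirtuin, ran the other way with 1257, 276 and 9.86 reads per kb. In every mouse the typical gene lay below 4 genes of the class (Hdac2, Hdac9, Sirt1 and Sirt3, the last a mitochondrial deacetylase) and above 5 of them.

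Of the methyltransferases, Setd2, which trimethylates histone H3 along transcribed genes, had the highest level, at 1338, 684 and 378 reads per kb. Kmt2e, a SET-domain protein of the MLL family without established histone methyltransferase activity, was second and steadier, at 803, 528 and 743 reads per kb. Both lay above the typical gene in all 3 mice. The MLL-family enhancer methyltransferases were unequal: Kmt2c had 201, 122 and 213 reads per kb, and Kmt2d had 17.1, 11.5 and 9.41. Kmt2a, the founding member of that family, had 448, 103 and 21.7 reads per kb and was highest in mouse 1. Setd1a had 0, 0 and 0.830 reads per kb, and its paralog Setd1b had 36.2, 24.2 and 14.1. The Setd1a value of mouse 3 rests on 8 reads, with an exact Poisson 95% interval of 3.45 to 15.8 reads.

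The paralogous catalytic subunits of Polycomb repressive complex PRC2 did not keep an order. Ezh2 had 50.2, 481 and 423 reads per kb, and Ezh1 had 30.8, 13.8 and 765. The Setdb pair of histone H3 lysine methyltransferases did not keep an order either, Setdb1 with 3.65, 252 and 827 reads per kb and Setdb2 with 825, 24.0 and 17.9. Asxl1 and Asxl2 are alternative partners of the histone H2A deubiquitinase Bap1. Asxl1 had 10.6, 116 and 27.0 reads per kb and Asxl2 398, 62.8 and 66.6. In this class 3 of the 20 genes that passed the filter were above and 3 below the typical gene in every mouse, and 14 were on different sides.

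Among the histone demethylases, Kdm7a had the narrowest range of all members that passed the filter. It had 2906, 3035 and 3426 normalised reads in mice 1, 2 and 3, a range of 0.24 log2 units, and 289, 302 and 341 reads per kb. Kdm3a, a demethylase of histone H3 that also acts in hypoxic gene expression, had 181, 198 and 750 reads per kb, and its paralog Kdm3b 1.54, 60.7 and 16.6. In the flavin-dependent pair, Kdm1a, the catalytic partner of CoREST, had 1.09, 2.14 and 0.272 reads per kb, and Kdm1b had 938, 298 and 88.6. The Kdm1a values rest on 7, 20 and 2 reads, with exact Poisson 95% intervals of 2.81 to 14.4, 12.2 to 30.9 and 0.242 to 7.22 reads. In all 3 mice every Kdm1b value was above every Kdm1a value.

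Paralogs of the Kdm5 and Kdm4 families were also unequal, in the same order in every mouse. Kdm5a had 103, 88.5 and 146 reads per kb and Kdm5b 0.731, 1.68 and 2.81. Kdm4a had 11.7, 0.768 and 0.122 reads per kb and Kdm4c 128, 53.9 and 82.9, while Kdm4b had reads in mouse 1 only. Kdm2a had 207, 84.7 and 91.2 reads per kb, and Kdm2b, a partner of variant PRC1 complexes, had 279, 0.817 and 102. Kdm2b was therefore among the 5 members with the widest range, at 8.26 log2 units, whereas Kdm5a was among the 5 with the narrowest, at 0.72.

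Values of the DNA methylation genes differed between genes and mice. Tet2, the dioxygenase often mutated in clonal haematopoiesis in humans, had 6.45, 48.7 and 34.5 reads per kb, and Tet3, the highest of the class, had 325, 56.0 and 113. Tet1 had 0.0522, 13.4 and 0.137 reads per kb, so its reads came almost wholly from mouse 2. The maintenance enzyme Dnmt1, which is highest in dividing cells, had 96.1, 5.94 and 4.11 reads per kb, and 90.5% of its summed normalised reads were in mouse 1. The de novo methyltransferase Dnmt3a had 83.6, 25.1 and 75.5 reads per kb, and Dnmt3b had 0, 345 and 0.705 normalised reads, a range of 8.44 log2 units. No gene of this class was above the typical gene in every mouse, and 3 of the 6 that passed the filter were below it in every mouse.

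Bromodomain genes were detected at 10 or more normalised reads in every mouse, all 7 of them, against 44.4% of all genes. Their median range over mice was 2.65 log2 units, against 3.77 for the members as a whole and 4.87 for all genes that passed the filter. None of the 7 exceeded 4, against 56% of all genes that passed. These medians were not matched for level. The median range of all genes was 6.78 between 100 and 1000 normalised reads and 2.73 between 1000 and 5000. Brd2, which binds acetylated chromatin at active genes, had 193, 141 and 120 reads per kb and lay above the typical gene in all 3 mice. Brd8, a subunit of the TIP60 complex, had 235, 86.1 and 566 reads per kb, and Brd7, a subunit of the PBAF remodeller, 58.3, 107 and 418.

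**Figure D2:**
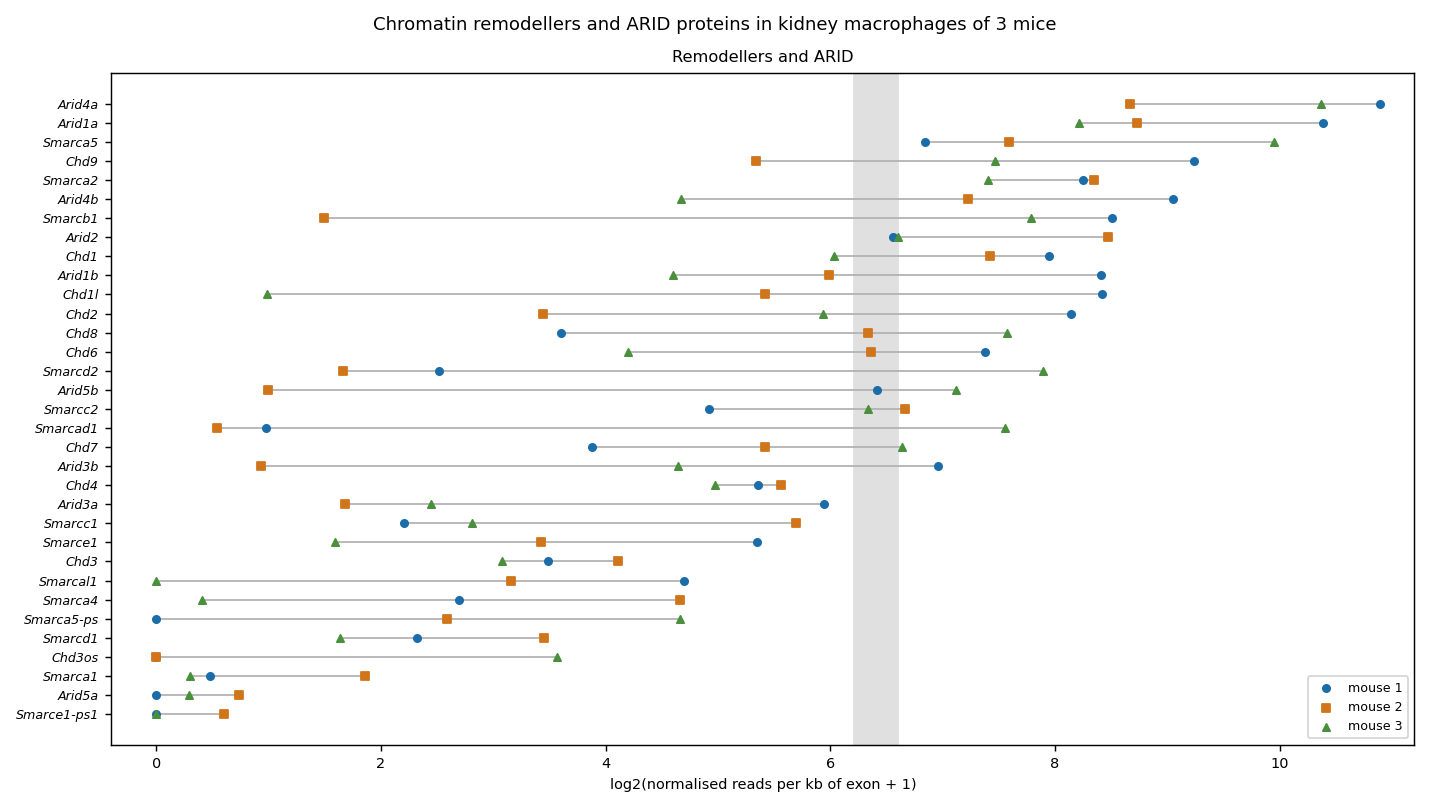
Level of each remodeller ATPase, subunit and ARID gene in each mouse, as log2 of normalised reads per kb of exon plus 1, with 1 symbol per mouse, a line over the range and the typical gene as a grey band. Arid4a, Arid1a, Smarca5 and Smarca2 lie above the band in all 3 mice, and Smarca4 and Smarcd1 lie below it.

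The highest member of all per length was Arid4a, a retinoblastoma-binding subunit of SIN3 deacetylase complexes, with 1903, 405 and 1323 reads per kb. Arid1a, the defining subunit of the canonical BAF remodeller, was next in this class with 1340, 425 and 296 reads per kb. Its paralog Arid1b had 339, 62.3 and 23.3, and Arid2, the corresponding subunit of PBAF, had 93.5, 355 and 95.9. Arid1a was above both in each mouse. BAF contains either of 2 alternative ATPases, and of these Smarca4 had 5.48, 24.3 and 0.327 reads per kb, and Smarca2 had 304, 325 and 168. The Smarca4 values lay below the typical gene in all 3 mice and the Smarca2 values above it.

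Values of the shared BAF subunits differed between genes and mice. Smarcb1, a core subunit, had 362, 1.82 and 220 reads per kb. Smarcc1 had 3.60, 50.8 and 6.03 reads per kb and Smarcc2 had 29.3, 100 and 79.8. Smarcd1 had 4.01, 9.93 and 2.10 reads per kb, and Smarcd2, which is needed in granulocyte development, had 4.72, 2.16 and 237. Counts for Smarce1 and Smarca5 may be shared with the pseudogenes Smarce1-ps1 and Smarca5-ps, whose sequences are nearly the same. Smarca5-ps had 0, 16.1 and 78.2 normalised reads, and Smarca5 had 883, 1496 and 7661, so both were highest in mouse 3.

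Outside BAF, the ISWI ATPase Smarca5 had 114, 192 and 985 reads per kb, and its paralog Smarca1 had 0.395, 2.63 and 0.230. The Smarca1 values rest on 3, 29 and 2 reads, with exact Poisson 95% intervals of 0.619 to 8.77, 19.4 to 41.7 and 0.242 to 7.22 reads. The NuRD ATPases varied little between mice: Chd4 had 39.9, 46.2 and 30.5 reads per kb and Chd3 10.2, 16.2 and 7.43. Chd9 was the highest of the Chd family, with 603, 39.4 and 176 reads per kb, and Smarcad1 had 12.9, 6.10 and 2499 normalised reads, a range of 8.46 log2 units. In the class as a whole, 5 genes were above and 9 below the typical gene in every mouse among the 29 that passed the filter. Dnmt3aos and Kdm6bos are annotated as antisense, and Chd3os has an antisense-type symbol but is annotated as protein-coding. Each was seen in 1 mouse, and without stated strand use in the counting their reads and those of their partners cannot be told apart.

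The spread between mice was wide, and the share of members with a wide range was smaller at higher mean levels, as it was in all genes. The median coefficient of variation was 0.991 over the 96 members and 1.02 over all genes that passed the filter. A range above 4 log2 units, which is 16-fold, was seen in 44 of the 96 members, against 56% of all genes, and a range below 1 log2 unit in 9, against 11.9%. With mouse 1, 2 or 3 left out, 26, 29 and 22 members had a range above 4. Split by mean level, the wide range was found in 10 of 15 members between 10 and 100 normalised reads, in 20 of 36 up to 1000, in 14 of 38 up to 5000 and in 0 of 7 above that. The corresponding shares were 66.7, 55.6, 36.8 and 0% in members and 78.6, 71.3, 35.6 and 3.73% in all genes. Level for level, members between 10 and 100 normalised reads had a median range of 5.67 log2 units, against 5.74 for all genes of that level. Between 100 and 1000 it was 4.20, against 6.78, and between 1000 and 5000 it was 3.01, against 2.73. Above 5000 the 7 members had a wider median range than all genes of that level, at 2.18 against 1.21.

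**Figure D3:**
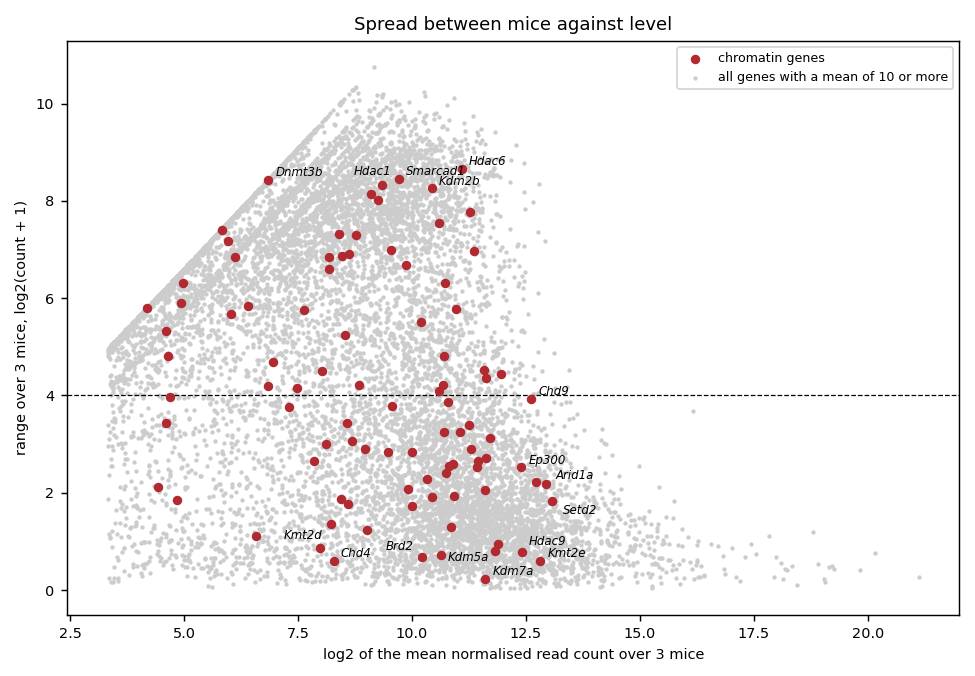
Range over the 3 mice on the log2(normalised reads + 1) scale against log2 of the mean normalised read count, for members that passed the filter (red) and all 11603 genes with a mean of at least 10 (grey), with a dashed line at 4. Kdm7a, Chd4, Kmt2e, Brd2 and Kdm5a have the narrowest ranges of the members and Hdac6, Smarcad1, Dnmt3b, Hdac1 and Kdm2b the widest.

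Some members came almost wholly from a single animal. In 18 of the 96, at least 90% of the summed normalised reads were in 1 mouse, against 30.2% of all genes. They were 5 genes in mouse 1 (Arid3a, Dnmt1, Kdm4a, Setd6, Setdb2), 4 in mouse 2 (Dnmt3b, Hdac10, Setd8, Tet1) and 9 in mouse 3 (Ezh1, Hdac5, Hdac6, Hdac7, Kat2a, Setd4, Sirt2, Smarcad1, Smarcd2). Among BAF subunits the highest value lay in mouse 3 for Smarcd2, in mouse 2 for Smarcc1 and in mouse 1 for Smarce1. Mouse 1 held the highest value for 45 of the 96 members, or 46.9%, against 33.9% of all genes, mouse 2 for 21 and mouse 3 for 30. By exon length, mouse 1 held the highest value in 45.5% of members under 6 kb, against 32.9% of all genes of that length. The shares were 38.5% against 35.8% from 6 to 10 kb and 54.1% against 37.6% from 10 kb up.

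Ratios between paralogs, or between alternative subunits of a complex, do not depend on the scaling between libraries, apart from the pseudocount. The 30 pairs were chosen with earlier results of these data known. Of the 30, 26 had both genes past the filter and 3 could be tested only without it. Sirt6/Sirt7 was left out because Sirt6 is not analysed here. Each ratio is a difference of log2 levels per length, after 1 normalised read was added to each value, tested over the 3 mice with limma on the differences of all genes from the second gene, and adjusted over all genes. The ratio had the same sign in all 3 mice in 14 of the 26 pairs, and 4 of the 26 were called at an adjusted p of 0.05. Without mouse 2 the count was 2, and without mouse 3 it was 1. The adjustment ran over the genes of each fit and not over the pairs, and the share of same-sign ratios in other gene pairs was not computed.

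Kat6a exceeded Kat6b by 7.88, 4.45 and 10.07 log2 units in mice 1, 2 and 3, with a mean of 7.47 and an SE of 1.92 (limma adjusted p = 0.00032). Kdm5a exceeded Kdm5b by 7.03, 5.67 and 5.67 log2 units, with a mean of 6.12 and an SE of 1.39 (limma adjusted p = 0.00504). The second gene of each pair is low, and 63.9% of all genes were called against Kat6b and 55.5% against Kdm5b, so a call against either gene was common. Smarca4 over Smarca2 was -5.76, -3.73 and -8.45 log2 units, with a mean of -5.98 and an SE of 1.32 (limma adjusted p = 0.0482), and 12.9% of all genes were called against Smarca2. Kmt2c exceeded Kmt2d by 3.55, 3.40 and 4.50 log2 units, with a mean of 3.82 and an SE of 0.87 (limma adjusted p = 0.0377), and 29.3% of all genes were called against Kmt2d.

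The 3 pairs with a gene below the filter were all called in the unfiltered table. Smarca5 over Smarca1 was 8.35 log2 units with an SE of 1.68 (limma adjusted p = 3.1e-06), where 60.8% of all genes were called against Smarca1. Kdm1a over Kdm1b was -8.03 log2 units with an SE of 1.84 (limma adjusted p = 0.000109), where 46.5% of all genes were called against Kdm1b. Setd1a over Setd1b was -6.39 log2 units with an SE of 1.24 (limma adjusted p = 0.0198), where 30.6% of all genes were called against Setd1b. The size of these ratios depends on the pseudocount, since the lower gene of each had few reads.

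For Smarca5/Smarca1, Kdm1a/Kdm1b and Kat6a/Kat6b the SE and p rest wholly on a spread borrowed across genes, not on the pair's own. The second gene enters every difference of its fit, and with it the spread that limma borrows across genes. In simulated pairs of equal level the pair fit made more calls than the threshold allows, and fewer were made with the spread borrowed from the fit against the typical gene. The simulated pairs were random genes past the filter with normal noise, unlike the pairs with a gene below the filter. With the borrowed spread taken from the fit against the typical gene, an alternative chosen after the values were seen, the call remained for Smarca5/Smarca1 (limma adjusted p = 0.0113), Kdm5a/Kdm5b (0.0194), Kat6a/Kat6b (0.0229) and Kdm1a/Kdm1b (0.0253). It was lost for Setd1a/Setd1b (limma adjusted p = 0.068), Kmt2c/Kmt2d (0.106) and Smarca4/Smarca2 (0.122). Leaving out mouse 3 also ended the call for Kat6a/Kat6b (limma adjusted p = 0.0564), and leaving out any 1 mouse ended it for Kmt2c/Kmt2d (0.121 to 0.145). For Smarca4/Smarca2 the call ended without mouse 2 (limma adjusted p = 0.292) or mouse 3 (0.228), and for Setd1a/Setd1b without mouse 1 (0.0514) or mouse 2 (0.0947). A pseudocount of 0.1 ended the call for Smarca4/Smarca2 (limma adjusted p = 0.0915), and levels not divided by exon length ended it for Kmt2c/Kmt2d (0.0846).

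**Figure D4:**
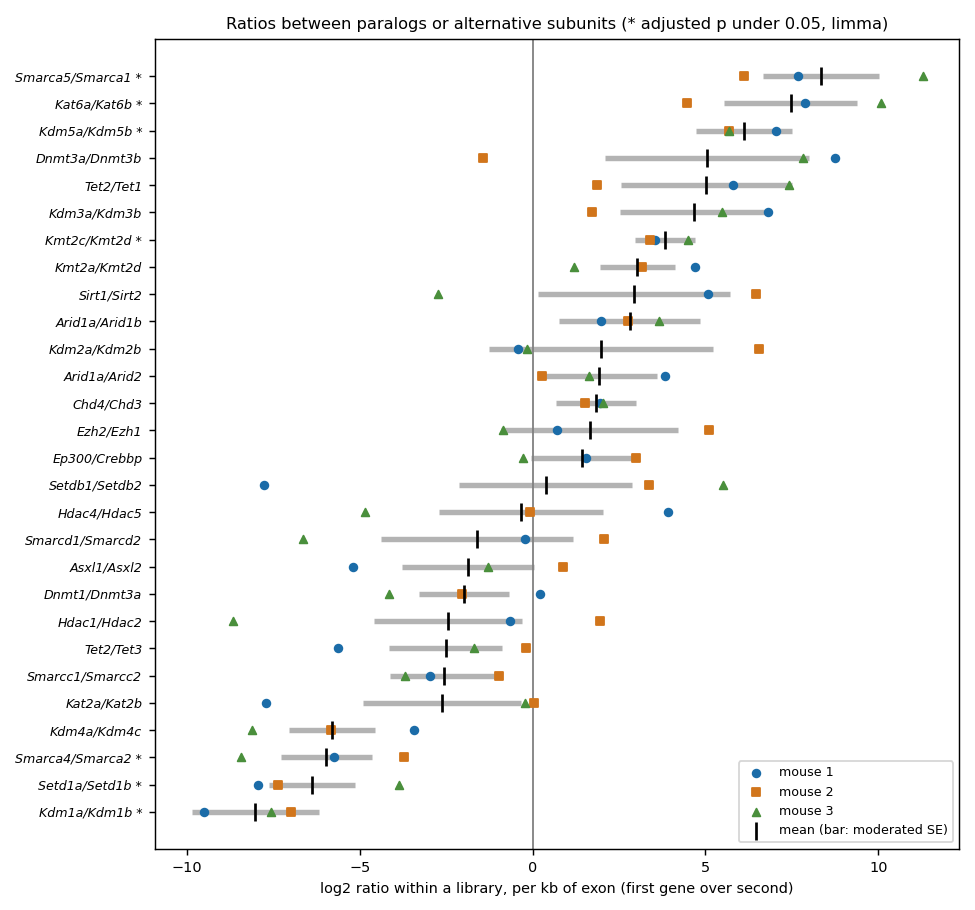
Log2 ratio of the first gene over the second within each library, per kb of exon, with 1 symbol per mouse, the mean as a black tick and its moderated SE as a grey bar; a star marks an adjusted p under 0.05. Smarca5/Smarca1, Kat6a/Kat6b and Kdm5a/Kdm5b lie to the right of 0 in all 3 mice and Kdm1a/Kdm1b, Setd1a/Setd1b and Smarca4/Smarca2 to the left.

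Of the other 22 pairs that passed the filter, 10 kept 1 sign in all 3 mice without being called. Kdm4a over Kdm4c was the largest of these at -5.80 log2 units with an SE of 1.25 (limma adjusted p = 0.0857), and 0% of all genes were called against Kdm4c. Tet2 over Tet1 was 5.03 log2 units (limma adjusted p = 0.0962) and Kdm3a over Kdm3b was 4.67 (0.117). Chd4 over Chd3 was 1.83 log2 units with an SE of 1.16, positive in all 3 mice, and was not called (limma adjusted p = 0.287). The remaining 12 pairs had different signs in different mice, among them Ezh2/Ezh1 at 0.70, 5.11 and -0.85 log2 units, Hdac1/Hdac2 at -0.65, 1.94 and -8.67, Ep300/Crebbp at 1.54, 2.99 and -0.27, and Setdb1/Setdb2 at -7.77, 3.38 and 5.51. A p that misses the threshold does not show that the genes of a pair were equal.

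Partner genes without a member symbol gave the setting of these enzymes. Of 182 partner genes in 9 lists, 160 were listed and 142 passed the filter, and 39 of these lay above and 38 below the typical gene in every mouse, shares near the 28.8 and 25.6% of all genes. The histone chaperones and variants stood highest, with 9 of 14 above and 1 below, a median of 605 reads per kb and a median range of 1.71 log2 units. H2afz, a histone variant deposited by remodellers, had 4308, 4587 and 4130.4 reads per kb, and H3f3b, which encodes the replacement histone H3, had 18992, 14595 and 20964. The other histone methyltransferases stood lowest, with 1 of 20 above and 9 below and a median of 38.0 reads per kb.

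The values of partner genes, some of which encode enzymes themselves, can be set beside those of the members. Eed, the PRC2 subunit that binds the methyl mark, had 673, 1419 and 973 reads per kb, above the typical gene in each mouse. Of the PRC2 and PRC1 partners 3 of 16 were above and 2 below the typical gene in every mouse. Dpy30, a shared subunit of the Kmt2 and Setd1 complexes, had 3485, 2303 and 2472 reads per kb, and 2 of 10 COMPASS partners were above and 2 below. Among NuRD, SIN3, CoREST and NCoR partners 8 of 18 were above and 6 below, with Rbbp7, a histone-binding subunit, at 1733, 1431 and 673 reads per kb. Of the BAF, ISWI and INO80 partners 6 of 26 were above and 10 below, with Pbrm1, the defining subunit of PBAF, at 531, 484 and 1520 reads per kb. Other acetyltransferases and their partners had 5 of 18 above and 4 below, with Hat1, which acetylates newly made histone H4, at 3636, 3804 and 2463 reads per kb. The other erasers had 2 of 9 above and 1 below, and the DNA methylation readers and repair genes 3 of 11 above and 3 below. The partner genes named were chosen after their values were seen, and each is among the highest of its list. In the list of Dpy30, Wdr5 had 229, 0.463 and 0.980 reads per kb, and Ash2l had 0.270, 19.2 and 1.02.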

How the data were processed

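RNA-seq libraries of 3 mice were analysed as 1 group with no contrast. The deposited table holds a normalised signal per gene, made by the authors with HTSeq 0.5.4 (read counting) and DESeq 1.18.0 (scaling) on the build mm9, per the submitters' processing notes. For the aligner, annotation and strand setting, the choice is not given in the sources used here. In each library the lowest deposited value was 1, and after subtraction of 1 the low values were whole multiples of a step per library in 100% of cases (tolerance 0.05 of a step), which gave the read totals and size factors of 1.24, 1.80 and 1.42. In each pair of libraries, 92.3 to 93.1% of genes with at least 5 expected reads differed beyond Poisson noise (chi-square p under 0.05).

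The members, lists and pairs were chosen with earlier results of these data known. Exon lengths are unions of exons from GENCODE M21 (GRCm38), matched by gene ID for 99.6% of genes and all 106 members. This is a later build than that of the reads, and no coordinates of the data were used. Differences were tested on log2(value + 1) per kb with limma 3.58.1 in R 4.3.3 (intercept only, moderated, two-sided, Benjamini-Hochberg over all genes with a mean of at least 10, threshold 0.05), and log2 values understate differences of low genes. The p-values measure a spread between these 3 mice that limma borrows in part from all genes. Among called pairs it was borrowed wholly for Smarca5/Smarca1, Kdm1a/Kdm1b and Kat6a/Kat6b. The genes given with values were the 4 highest per kb of each role class, both genes of each pair and the 5 widest and 5 narrowest ranges, and any others were chosen after their values were seen. The values of 1 member and of its pair are not reported here, though they enter the counts and fits. Both fits were tested on simulated data with known differences, and the pair fit called too many pairs of equal level. Alternatives changed the pseudocount, filter, length, scaling and libraries. Other steps used Python 3.11.15, pandas 2.3.3, numpy 2.4.6, scipy 1.17.1 and matplotlib 3.10.9.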

Additional observations from a re-analysis of the deposited data

How the results depend on the processing

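The counts of members above and below the typical gene at the adjusted threshold moved with the low values: limma called 0 above and 0 below in the values reported, against 1 above and 8 below with a pseudocount of 10 (13.3 and 8.62% of all genes), and 4 above and 15 below with no filter (16.3 and 15.2%). With a mean of at least 100, 18 pairs could be tested and 1 was called, Kmt2c/Kmt2d (limma adjusted p = 0.0222). Kat6a/Kat6b, Kdm5a/Kdm5b and Smarca4/Smarca2 each had a gene below that mean and were not tested there. The 4 called pairs became 2 with the borrowed spread of the typical-gene fit, and 1 to 3 when 1 mouse was left out (3 without mouse 1, 2 without mouse 2, 1 without mouse 3). Members with a range above 4 log2 units numbered 22 to 29 when 1 mouse was left out, against 44, as fewer samples give a smaller range. Upper quartile scaling, chosen after the values were seen, gave 71 members at 10 or more in every mouse, 44 with a range above 4 and 0.399% of reads in members, and was run for these quantities only. Of single pair ratios, 248 kept direction and side of the threshold, 13 lost and 2 gained a call, and 7 reversed. The reversals were Hdac4/Hdac5 at 0.50 log2 units without division by exon length, and, with 1 mouse left out, Ezh2/Ezh1 (-0.074 to 2.91), Smarcd1/Smarcd2 (-3.45 to 0.91), Hdac1/Hdac2 (-4.66 to 0.65), Kdm2a/Kdm2b (-0.30 to 3.19) and Setdb1/Setdb2 (-2.19 to 4.44). The cause of the other moves was not tested. Kdm4a/Kdm4c gained a call with a pseudocount of 10 (limma adjusted p = 0.0429) and with no filter (0.0377), within a range of 0.0377 to 0.353 over its alternatives.

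A count test on whole reads and TMM scaling were not run, since the deposited values are scaled and offset by 1. No paired analysis was possible because there is a single group. Low read counts limit the members under a mean of 10 normalised reads, and 3 mice limit every test.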
